A study of Homo sapiens with 24 samples.

Results

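Transcripts of 9 genes around the RAS switch were followed over 6 groups of acute myeloid leukaemia libraries: the RAS genes NRAS, HRAS and RRAS, the exchange factors RASGRP2, RASGRP4, SOS1 and SOS2, the scaffold KSR1 and the RAS inhibitor NF1. They were chosen with earlier results of these data known and taken by symbol. All 9 were found among the 13033 genes of the table, each as 1 row. The largest change in both lines was that of RASGRP4, which was 7.72-fold higher in OCIAML-3 and 6.91-fold higher in Molm-14 after 24 h of drug. RRAS, SOS2 and KSR1 also rose at 24 h in both lines. HRAS fell in OCIAML-3 at 24 h, and NRAS and NF1 stayed within 1.31-fold of DMSO in every comparison with drug.

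Poly(A) RNA was sequenced from 2 human leukaemia lines, OCIAML-3 (labelled with the genotype NRAS Q61L) and Molm-14 (labelled FLT3-ITD). Cells of each line received 25 nM RMC-7977, an inhibitor of the GTP-bound state of RAS proteins, for 2 or 24 h, or the solvent DMSO. Each of the 6 groups has 4 labelled libraries, and 1 library of OCIAML-3 at 24 h (replicate 3) was not analysed here, which leaves n = 3 there, n = 4 elsewhere and 23 libraries in all. All libraries carry the same batch label, each line has a single DMSO group with no stated time, and each genotype is represented by 1 line. The comparisons at 2 h and 24 h within a line therefore share their DMSO libraries. The labels do not say that replicates were grown as separate cultures, so p-values measure the spread between these libraries, which may be technical. In RNA from whole cultures, fewer cells that express a gene and less RNA of it per cell cannot be told apart.

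RAS proteins are small GTPases that signal while bound to GTP. Exchange factors load them with GTP: SOS1 and SOS2 do so downstream of receptor tyrosine kinases, and the RASGRP proteins downstream of diacylglycerol and, for some of them, calcium in blood cells. NF1 (neurofibromin) returns RAS to its GDP-bound state, and KSR1 holds RAF, MEK and ERK together so that the signal passes on. RMC-7977 first binds the chaperone cyclophilin A, encoded by PPIA, and the pair then binds GTP-bound RAS.

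Values are CPM (read counts scaled to a common effective library size), and changes are differences of the authors' log2 CPM (log2 fold changes, ± SE from limma). Calls needed both an adjusted p below 0.05 over all 13033 genes and a log2 fold change of at least 1 in size, and only called genes are said to have risen or fallen. Effective library sizes were 15.3 to 22.4 M reads, so that the least abundant value of the 9 genes, RRAS in a Molm-14 DMSO library, still rested on 38 reads. Of 9 myeloid and blood marker genes 8 were measured (KIT was not), and their summed level was 6655 to 7071 CPM in OCIAML-3 at 24 h against 2253 to 2376 CPM in OCIAML-3 with DMSO, and 1599 to 1660 CPM in Molm-14 at 24 h against 1114 to 1169 CPM in Molm-14 with DMSO. Such a sum can rest on 1 abundant gene, and the 8 genes are not given singly. The part of this shift in summed level in the results at 24 h was not tested. None of 5 lymphoid and none of 5 erythroid and platelet markers was measured, and of 6 epithelial and stromal markers only COL1A2 was, at no more than 4.85 CPM. DUSP6, a phosphatase gene that ERK switches on, served as a check of the drug. In OCIAML-3 with DMSO, 2 h and 24 h of drug DUSP6 averaged 11.8, 0.201 and 0.17 CPM, and in Molm-14 43.9, 2.75 and 42.4 CPM. It fell in every comparison with DMSO but that of Molm-14 at 24 h, where the log2 difference was -0.05.

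The starts of 4 of the genes are printed because 3 of them (RASGRP4, SOS2 and KSR1) rose in both lines at 24 h and HRAS fell in 1 of them. Each run holds the 250 bases before and the 50 bases after an annotated transcription start, 5′ to 3′ on the gene's strand, from RefSeq on GRCh38.p14. Capitals mark matches, on either strand, to 6 short motifs. These were CCACCC (a Krüppel-like factor box) and GGGCGG (an SP1 box), TGTTTAC (a forkhead motif) and CCGGAA (an ETS motif), TGANTCA (an AP-1 motif) and CACGTG (an E-box). Overlapping matches were counted separately.
RASGRP4 (chr19:38426170-38426469, minus strand): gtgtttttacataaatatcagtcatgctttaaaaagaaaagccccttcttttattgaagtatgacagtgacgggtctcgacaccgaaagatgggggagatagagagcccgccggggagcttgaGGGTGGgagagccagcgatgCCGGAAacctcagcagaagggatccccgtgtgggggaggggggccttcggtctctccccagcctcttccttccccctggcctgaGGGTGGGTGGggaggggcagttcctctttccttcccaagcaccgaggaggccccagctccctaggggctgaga
SOS2 (chr14:50231529-50231828, minus strand): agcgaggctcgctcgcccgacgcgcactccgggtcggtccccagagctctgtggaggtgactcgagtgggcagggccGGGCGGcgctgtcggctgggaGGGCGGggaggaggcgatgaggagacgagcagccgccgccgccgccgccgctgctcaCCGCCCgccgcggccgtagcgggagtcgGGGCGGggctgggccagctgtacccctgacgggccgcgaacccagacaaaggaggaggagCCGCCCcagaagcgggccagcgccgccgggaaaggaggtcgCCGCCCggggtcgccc
KSR1, first of 3 annotated starts (chr17:27456198-27456497, plus strand): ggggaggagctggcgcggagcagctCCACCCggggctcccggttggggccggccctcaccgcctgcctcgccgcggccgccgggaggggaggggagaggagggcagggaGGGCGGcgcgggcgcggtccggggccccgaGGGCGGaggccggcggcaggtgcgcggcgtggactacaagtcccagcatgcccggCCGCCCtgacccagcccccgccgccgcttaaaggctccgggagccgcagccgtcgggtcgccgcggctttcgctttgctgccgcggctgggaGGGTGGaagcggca
HRAS (chr11:535527-535826, minus strand): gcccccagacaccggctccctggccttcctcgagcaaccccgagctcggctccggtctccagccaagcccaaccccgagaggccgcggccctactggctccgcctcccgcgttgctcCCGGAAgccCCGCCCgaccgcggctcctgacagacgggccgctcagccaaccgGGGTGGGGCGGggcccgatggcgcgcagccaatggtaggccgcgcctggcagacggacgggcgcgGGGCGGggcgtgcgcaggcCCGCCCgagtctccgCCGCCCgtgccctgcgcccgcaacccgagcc
The RASGRP4 run holds CCACCC 3 times and CCGGAA once, and no GGGCGG. SOS2 holds GGGCGG 6 times and none of the other 5 motifs. The printed first start of KSR1 holds GGGCGG 3 times and CCACCC 2 times, whereas HRAS holds GGGCGG 5 times and CCACCC and CCGGAA once each. KSR1 starts 2 and 3, which are not printed, hold neither GGGCGG nor CCACCC, and start 2 holds TGANTCA once. Over 35116 promoter windows of the same length, GGGCGG was present in 45% and CCACCC in 34.3%, CCGGAA in 17.2%, TGANTCA in 7.71%, CACGTG in 7.26% and TGTTTAC in 3.42%. The GC content was 58.3% for RASGRP4, 77.3% for SOS2, 79.3% for the printed KSR1 start and 78% for HRAS, against a median of 58.7% over all windows. It was 51.7% and 53% for KSR1 starts 2 and 3. Of the 9 genes 8 had a window in the table (11 windows in all), and NRAS alone among them held TGTTTAC and CACGTG. RRAS, which also rose in both lines at 24 h, was the 1 without a window. In the printed runs, the 3 genes that rose together at 24 h did not hold 1 motif in common. SOS2 has no CCACCC and RASGRP4 has no GGGCGG. None of these 3 runs has TGANTCA.

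RMC-7977 was followed first at 2 h. In OCIAML-3, limma called 0 of the 9 genes, as did voom on recovered reads, against 3.23% of all genes called higher and 3.35% called lower. With any size of change, 5 of the 9 were higher at an adjusted p below 0.05 and 1, HRAS, was lower, against 31.4% and 30.8% of all genes. In Molm-14 at 2 h, 2 of the 9 genes were called higher (RRAS and RASGRP2) and 0 lower, against 4.30% of all genes called higher and 2.98% called lower. At the adjusted p alone 7 were higher and 0 were lower, against 28.7% higher and 30.8% lower over all genes. The median log2 fold change of the 9 was 0.35 in OCIAML-3 and 0.50 in Molm-14, beside 0.02 and 0.00 for all genes.

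At 24 h more of them had moved. In OCIAML-3, RRAS, RASGRP4, SOS1, SOS2 and KSR1 were called higher and HRAS was called lower, which is 5 and 1 of 9 against 18.4% and 17.1% of all genes. All 9 passed the adjusted p, 5 higher and 4 lower, against 42.4% and 42.0% of all genes. In Molm-14 at 24 h, RRAS, RASGRP4, SOS2 and KSR1 were called higher and 0 lower, against 11.4% of all genes called higher and 6.57% called lower. At the adjusted p alone 7 were higher and 2 (NRAS and HRAS) were lower, against 37.7% and 38.6%. The median log2 fold change of the 9 was 1.28 in OCIAML-3 and 0.26 in Molm-14, beside 0.01 and 0.00 for all genes. Because the 9 were chosen with earlier results of these data known, these counts and medians do not test the set against all genes.

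**Figure D1:**
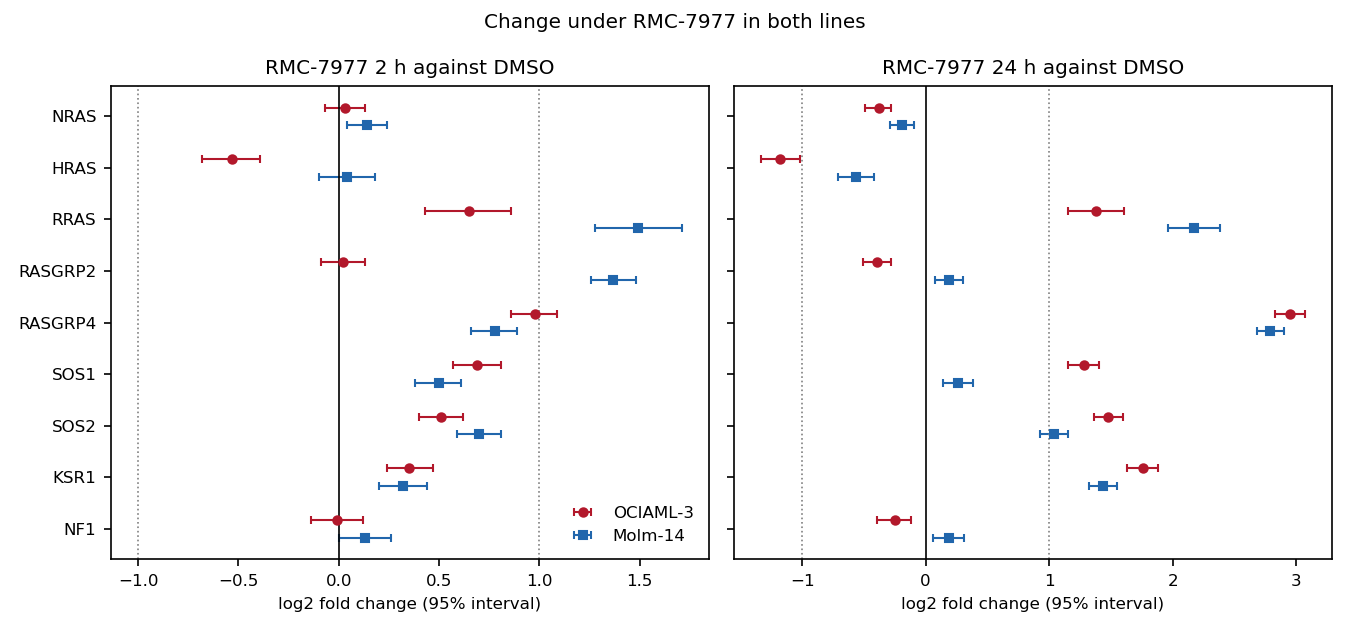
Log2 fold change of each of the 9 genes under RMC-7977 against DMSO at 2 h (left) and 24 h (right), with 95% intervals from limma. Red circles stand for OCIAML-3 and blue squares for Molm-14, and dotted lines mark a log2 fold change of 1 in size. RASGRP4 lies farthest to the right at 24 h in both lines (2.95 and 2.79), HRAS farthest to the left (-1.18 and -0.56), and the lines stand widest apart for RASGRP2 at 2 h (0.02 in OCIAML-3, 1.37 in Molm-14).

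Among the RAS genes themselves, NRAS (ENSG00000213281, chr1:114704469-114716894, minus strand), the RAS most often mutated in myeloid leukaemia, was the steadiest. In OCIAML-3 it ranged over 81.3 to 97.2 CPM with DMSO, 85.4 to 98.2 CPM at 2 h and 67.3 to 71.1 CPM at 24 h. In Molm-14 it ranged over 128 to 140 CPM with DMSO, 142 to 150 CPM at 2 h and 114 to 119 CPM at 24 h. At 24 h every library was below all DMSO libraries of its line, by a log2 difference of -0.38 ± 0.05 in OCIAML-3 (adjusted p = 8.9e-08) and -0.19 ± 0.05 in Molm-14 (adjusted p = 0.00072), neither of which reached the fold limit. At 2 h Molm-14 was above its DMSO libraries by 0.14 ± 0.05 (adjusted p = 0.015), and OCIAML-3 overlapped them (0.03 ± 0.05, adjusted p = 0.58). The line that carries the NRAS allele had the lower NRAS level: DMSO libraries of OCIAML-3 averaged 90.9 ± 7.12 CPM and those of Molm-14 133 ± 5.44 CPM (SD, n = 4 each), a log2 difference of -0.55 ± 0.05 (adjusted p = 1.1e-11). The values sum both alleles, and the table does not separate them.

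HRAS (ENSG00000174775, chr11:532242-537287, minus strand), a close relative of NRAS, was lower after drug. In OCIAML-3 its levels were 48.6, 40.2, 46.2 and 36.7 CPM with DMSO, 28.4, 29.9, 28.5 and 31.2 CPM at 2 h, and 19.2, 18.5 and 18.8 CPM at 24 h. In Molm-14 they were 33, 29.4, 33.4 and 29.4 CPM with DMSO, 32.1, 31.3, 34.6 and 30.7 CPM at 2 h, and 22.7, 21.5, 19.9 and 20.4 CPM at 24 h. The 3 groups of OCIAML-3 do not overlap and step downwards, whereas in Molm-14 DMSO and 2 h overlap and only 24 h lies apart. HRAS fell at 24 h in OCIAML-3, by 1.18 ± 0.08 on the log2 scale (adjusted p = 5.9e-15). The difference was -0.53 ± 0.07 in OCIAML-3 at 2 h (adjusted p = 1.3e-07) and -0.56 ± 0.07 in Molm-14 at 24 h (adjusted p = 2e-08). In Molm-14 at 2 h it was 0.04 ± 0.07 (95% interval -0.10 to 0.18). The response was more negative in OCIAML-3 than in Molm-14 by 0.57 ± 0.10 at 2 h (adjusted p = 2.9e-05) and by 0.61 ± 0.10 at 24 h (adjusted p = 7.1e-06). DMSO replicates 1 and 3 of OCIAML-3 had the 2 highest levels of HRAS, RRAS and RASGRP2 in that group and the 2 lowest of NRAS, SOS1, SOS2 and NF1, and the HRAS levels at 2 h and 24 h lay below all 4 of them.

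RRAS (ENSG00000126458, chr19:49635292-49640201, minus strand) encodes a RAS relative known for its role in integrin adhesion, and it rose. OCIAML-3 libraries had 8.68, 7.45, 9.84 and 8.42 CPM with DMSO, 15, 12.8, 12.5 and 13.6 CPM at 2 h, and 23.6, 20.9 and 22.8 CPM at 24 h. Molm-14 libraries had 2.11, 2.47, 2.3 and 2.85 CPM with DMSO, 6.37, 6.52, 7.08 and 8.23 CPM at 2 h, and 10.6, 12.1, 12.1 and 10.4 CPM at 24 h. In each line the 3 groups do not overlap, and the level was higher at each later point. The log2 fold change at 24 h was 1.38 ± 0.11 in OCIAML-3 (adjusted p = 1.6e-12) and 2.17 ± 0.10 in Molm-14 (adjusted p = 7.3e-18). RRAS was already called in Molm-14 at 2 h (1.49 ± 0.10, adjusted p = 1.8e-13), whereas its change of 0.65 ± 0.10 in OCIAML-3 (adjusted p = 3.6e-06) missed the fold limit. The response was smaller in OCIAML-3 by 0.85 ± 0.15 at 2 h (adjusted p = 3e-05) and by 0.79 ± 0.15 at 24 h (adjusted p = 4.9e-05). The starting level in DMSO was 3.43-fold higher in OCIAML-3 than in Molm-14 (1.78 ± 0.10, adjusted p = 5.6e-16).

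**Figure D2:**
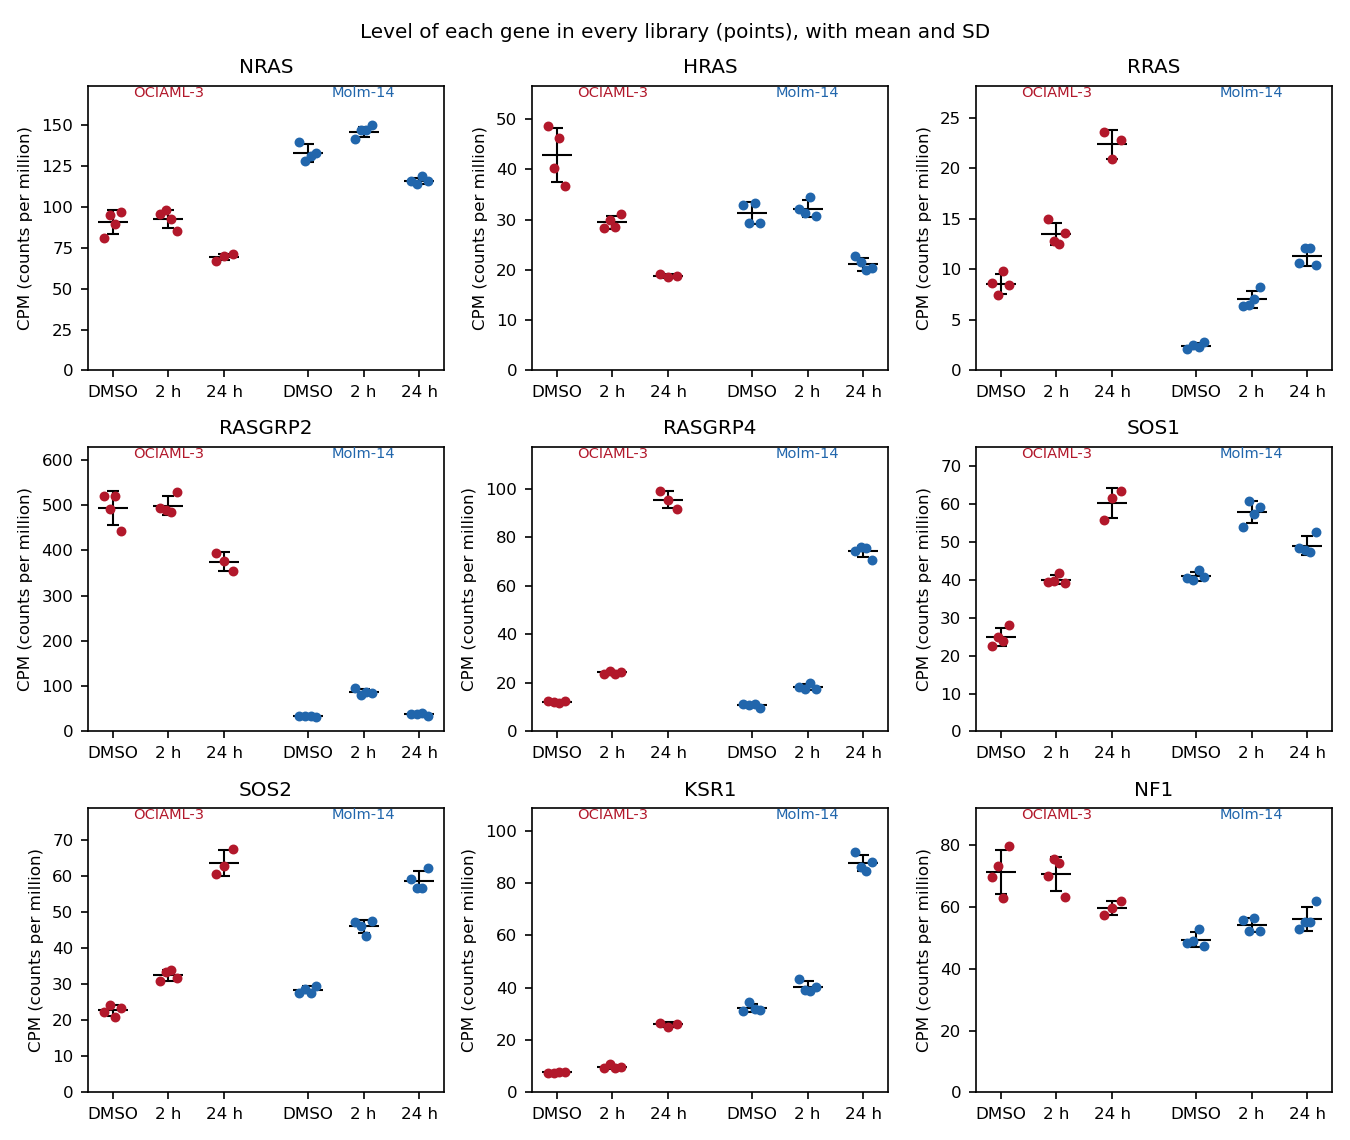
CPM of the 9 genes in every library, with DMSO, 2 h and 24 h of RMC-7977 along the horizontal axis, OCIAML-3 in red on the left and Molm-14 in blue on the right. Points are libraries, wide bars are group means and error bars are SD (n = 4, and 3 for OCIAML-3 at 24 h). RASGRP4 and KSR1 are highest at 24 h in both lines, RASGRP2 peaks at 2 h in Molm-14, and RASGRP2 is far higher in OCIAML-3 throughout (375 to 499 CPM against 33.5 to 86.9 CPM as group means).

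RASGRP4 (ENSG00000171777, chr19:38409051-38426305, minus strand) encodes an exchange factor found mainly in mast cells and myeloid cells, and its transcript changed most. In OCIAML-3 it was at 12.5, 12.2, 11.9 and 12.5 CPM with DMSO, 23.7, 25.1, 23.6 and 24.7 CPM at 2 h, and 99.3, 95.6 and 91.9 CPM at 24 h. In Molm-14 it was at 11.3, 10.7, 11.1 and 9.64 CPM with DMSO, 18.3, 17.6, 19.9 and 17.6 CPM at 2 h, and 74.4, 76, 75.8 and 70.8 CPM at 24 h. No 2 of the 6 groups overlap, and the order of DMSO, 2 h and 24 h is the same in both lines. At 24 h the log2 fold change was 2.95 ± 0.06 in OCIAML-3 (adjusted p = 1.5e-27), rank 244 from the top of the 13033 genes, and 2.79 ± 0.06 in Molm-14 (adjusted p = 5.1e-27), rank 117. Most of this came after 2 h: at 24 h relative to 2 h the fold was 3.92 in OCIAML-3 (1.97 ± 0.06, adjusted p = 6.5e-23) and 4.03 in Molm-14 (2.01 ± 0.06, adjusted p = 2.6e-23). The 2 h difference was 0.98 ± 0.06 in OCIAML-3 (adjusted p = 2.2e-15) and 0.78 ± 0.06 in Molm-14 (adjusted p = 3.7e-13), the first of which passes the fold limit when libraries are scaled to their totals (1.05). The responses of the lines differed by 0.16 at 24 h (95% interval -0.01 to 0.33, adjusted p = 0.088), so that no difference between the lines was called there. At 2 h the response was larger in OCIAML-3 by 0.20 (95% interval 0.04 to 0.36, adjusted p = 0.044), short of the fold limit. RASGRP4 shares 38 exonic bases (0.908% of its exons) with FAM98C on the opposite strand, whose own log2 fold change at 24 h was 1.20 in OCIAML-3 and 0.78 in Molm-14. The strand setting of the counting is not stated in the labels.

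RASGRP2 (ENSG00000068831, chr11:64726911-64745456, minus strand), also called CalDAG-GEFI, activates mainly the RAS relative RAP1 and is known from platelets and neutrophils. Its levels in OCIAML-3 were 521, 492, 520 and 442 CPM with DMSO, 494, 489, 485 and 529 CPM at 2 h, and 395, 376 and 355 CPM at 24 h. Its levels in Molm-14 were 34.9, 33.4, 33 and 32.7 CPM with DMSO, 95.2, 81.1, 87.6 and 83.9 CPM at 2 h, and 38.3, 39.2, 40 and 35.1 CPM at 24 h. Molm-14 thus shows a peak at 2 h that stands clear of both other groups, and OCIAML-3 shows overlap of DMSO and 2 h and a lower level at 24 h. RASGRP2 rose in Molm-14 at 2 h by 1.37 ± 0.05 (adjusted p = 1.6e-19), and at 24 h it fell relative to 2 h by 1.19 ± 0.05 (adjusted p = 3.4e-18). In OCIAML-3 the 2 h difference was 0.02 ± 0.05 (95% interval -0.09 to 0.13), and the 24 h difference was -0.39 ± 0.06 (adjusted p = 3.3e-07). The 2 h response was lower in OCIAML-3 by 1.35 ± 0.08 (adjusted p = 6e-15), the only one of the 9 genes called there, against 3.52% of all genes called lower in that comparison. In DMSO the gene was 14.7-fold higher in OCIAML-3 (3.87 ± 0.05, adjusted p = 9.6e-32).

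SOS1 (ENSG00000115904, chr2:38981396-39124345, minus strand) and SOS2 (ENSG00000100485, chr14:50117120-50231558, minus strand) encode the exchange factors that GRB2 brings to activated receptors. In OCIAML-3, SOS1 had 22.6, 25, 24 and 28 CPM with DMSO, 39.5, 39.8, 41.8 and 39.2 CPM at 2 h, and 55.9, 61.6 and 63.6 CPM at 24 h. In Molm-14, SOS1 had 40.4, 40.1, 42.7 and 40.8 CPM with DMSO, 54.1, 60.8, 57.5 and 59.3 CPM at 2 h, and 48.5, 47.8, 47.4 and 52.7 CPM at 24 h. In OCIAML-3 each later group stood above the one before, and in Molm-14 the 2 h libraries were highest and the 24 h libraries between. SOS1 rose in OCIAML-3 at 24 h, by 1.28 ± 0.06 (adjusted p = 4.3e-18), where the change in Molm-14 was 0.26 ± 0.06 (adjusted p = 0.00016). The difference in response was 1.02 ± 0.08 (adjusted p = 9.6e-12), the only one called among the 9 at 24 h, against 8.09% of all genes called higher. It lies on the fold limit: it was 1.00 without Molm-14 DMSO replicate 3, 0.97 without OCIAML-3 DMSO replicate 1, 0.98 without replicate 4 of OCIAML-3 at 24 h and 0.99 with a pseudocount of 1 CPM, and it was not called in any of these 4 fits. At 2 h the log2 fold change of SOS1 was 0.69 ± 0.06 in OCIAML-3 (adjusted p = 1.1e-11) and 0.50 ± 0.06 in Molm-14 (adjusted p = 9.6e-09).

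In OCIAML-3, SOS2 was at 22.4, 24.3, 20.8 and 23.5 CPM with DMSO, 30.8, 33.3, 33.9 and 31.6 CPM at 2 h, and 60.4, 62.7 and 67.4 CPM at 24 h. In Molm-14 it was at 27.5, 28.7, 27.6 and 29.6 CPM with DMSO, 47.2, 46.2, 43.4 and 47.4 CPM at 2 h, and 59, 56.6, 56.6 and 62.1 CPM at 24 h. Unlike SOS1, it was highest at 24 h in both lines, with no overlap among the groups of a line. SOS2 rose at 24 h by 1.48 ± 0.06 in OCIAML-3 (adjusted p = 2.2e-20) and by 1.04 ± 0.05 in Molm-14 (adjusted p = 4.6e-17). At 2 h it was higher by 0.51 ± 0.05 in OCIAML-3 (adjusted p = 1.9e-09) and by 0.70 ± 0.05 in Molm-14 (adjusted p = 2.1e-12). Its 24 h response was larger in OCIAML-3 by 0.44 ± 0.08 (adjusted p = 2.1e-05).

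KSR1 (ENSG00000141068, chr17:27456470-27626438, plus strand), the scaffold, rose late. Its levels in OCIAML-3 were 7.42, 7.49, 7.81 and 7.76 CPM with DMSO, 9.19, 10.7, 9.43 and 9.81 CPM at 2 h, and 26.6, 25.1 and 26.3 CPM at 24 h. In Molm-14 they were 31.1, 34.6, 32 and 31.6 CPM with DMSO, 43.5, 39, 38.7 and 40.4 CPM at 2 h, and 92, 86.3, 84.8 and 88 CPM at 24 h. All 6 groups are separate, and every OCIAML-3 library, drug included, had less KSR1 than every Molm-14 library. The log2 fold change at 24 h was 1.76 ± 0.06 in OCIAML-3 (adjusted p = 1e-21) and 1.44 ± 0.06 in Molm-14 (adjusted p = 6.5e-20), and the lines differed by 0.32 ± 0.08 (adjusted p = 0.0014). At 2 h it was 0.35 ± 0.06 in OCIAML-3 (adjusted p = 3.5e-06) and 0.32 ± 0.06 in Molm-14 (adjusted p = 1.6e-05). With DMSO the gene was 4.2-fold lower in OCIAML-3 (-2.07 ± 0.06, adjusted p = 2.6e-24). The annotation places 432 of its exonic bases (3.55%) in an overlapping gene on the same strand and 656 (5.39%) in an antisense gene, neither of which is in the table.

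NF1 (ENSG00000196712, chr17:31094927-31382116, plus strand), which switches RAS off, moved little. In OCIAML-3 it ranged over 62.9 to 79.9 CPM with DMSO, 63.2 to 75.7 CPM at 2 h and 57.4 to 61.9 CPM at 24 h. In Molm-14 it ranged over 47.4 to 53 CPM with DMSO, 52.2 to 56.5 CPM at 2 h and 52.9 to 62 CPM at 24 h. The 24 h libraries of OCIAML-3 lay below all of its DMSO libraries, and in Molm-14 the groups overlap. At 24 h the difference was -0.25 ± 0.07 in OCIAML-3 (adjusted p = 0.0011) and 0.19 ± 0.06 in Molm-14 (adjusted p = 0.0092), and the responses differed by -0.44 ± 0.09 (adjusted p = 0.00014). At 2 h it was -0.01 ± 0.06 in OCIAML-3 (95% interval -0.14 to 0.12) and 0.13 ± 0.06 in Molm-14 (95% interval 0.00 to 0.26), and neither passed the test. NF1 has 12 pseudogenes named after it in the annotation, none of them in the table, and it shares 152 exonic bases (0.56%) with EVI2A on the opposite strand, so reads shared with near copies leave its level uncertain.

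Between the drug times, RASGRP4 and KSR1 were called higher at 24 h than at 2 h in both lines. In OCIAML-3 that was 2 of 9 called higher, against 11.6% of all genes, with KSR1 at 1.40 ± 0.06 (adjusted p = 6.1e-19). SOS2 there stood just under the limit at 0.97 ± 0.06 (adjusted p = 1.7e-15), and was called when libraries were scaled to their totals (1.07), by median-of-ratios factors (1.02) or without replicate 1 at 24 h (1.00). In Molm-14 it was again 2 of 9 called higher, against 7.25%, with KSR1 at 1.12 ± 0.06 (adjusted p = 5.6e-17). RASGRP2 was the 1 gene called lower between the times in Molm-14, against 3.38% of all genes.

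With DMSO alone the lines differed most in RASGRP2, KSR1 and RRAS. RASGRP2 and RRAS were called higher in OCIAML-3 (2 of 9, against 17.9% of all genes) and KSR1 was called lower (1 of 9, against 12.2%). All of the other 6 passed the adjusted p with smaller differences, from -0.72 for SOS1 to 0.53 for NF1. Per kilobase of exon, RASGRP2 was the most abundant of the 9 in OCIAML-3 with DMSO, at 81.1 CPM per kb over all its exons or 165 CPM per kb over its longest coding transcript, and KSR1 the least, at 0.626 or 1.05 CPM per kb. In Molm-14 with DMSO NRAS led with 29.9 CPM per kb by both lengths, followed by HRAS (16.9 or 25.4) and RASGRP2 (5.51 or 11.2). The order of levels over the 6 groups was the same for 7 of the 9 genes when libraries were scaled to their totals, and differed for SOS1 and NF1.

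Ratios of 2 of the genes within a library were compared between groups with exact permutation tests (two-sided, 25 tests, adjusted over these). The scaling of the library cancels from them, apart from the constant of 0.105 CPM kept in the log2 values, which weighs on low genes. For 4 against 4 libraries the smallest p possible is 0.0286 (0.0397 adjusted here), and for 3 against 4, as in OCIAML-3 at 24 h, it is 0.0571, so that those 5 tests cannot pass 0.05. Of the 25, 18 reached an adjusted p below 0.05, and in 23 the groups did not overlap. RASGRP4 relative to RASGRP2 turned over in Molm-14: the mean log2 ratio was 0.96 ± 0.04 at 24 h against -1.64 ± 0.08 with DMSO (SD, n = 4 each; exact p = 0.0286). Per kilobase of longest coding transcript, that is 22.4 CPM of RASGRP4 and 12.8 CPM of RASGRP2 at 24 h, and 3.22 and 11.2 CPM with DMSO, and the order is the same per kilobase of all exons. In OCIAML-3 the same ratio was -1.97 ± 0.02 at 24 h (n = 3) against -5.31 ± 0.13 with DMSO (n = 4), a 10.1-fold change (exact p = 0.0571) that left RASGRP2 the higher of the pair per kilobase too (126 CPM for RASGRP2 and 28.9 CPM for RASGRP4). At 2 h the ratio moved in opposite directions, by 0.96 in OCIAML-3 and by -0.59 in Molm-14 (exact p = 0.0286 in each).

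SOS2 relative to SOS1 was higher at 24 h in both lines, at 0.07 ± 0.04 (n = 3) against -0.13 ± 0.12 with DMSO (n = 4) in OCIAML-3 (exact p = 0.0571), and at 0.25 ± 0.02 against -0.53 ± 0.07 in Molm-14 (n = 4 each, exact p = 0.0286). At 2 h this ratio too went opposite ways, by -0.18 in OCIAML-3 and by 0.20 in Molm-14 (exact p = 0.0286 in each). HRAS relative to NRAS was lower by 0.56 in OCIAML-3 at 2 h and by 0.37 in Molm-14 at 24 h (exact p = 0.0286 in each), and in Molm-14 at 2 h the groups overlapped (-0.10, exact p = 0.2). RRAS relative to NRAS was higher by 1.76 in OCIAML-3 (exact p = 0.0571) and 2.36 in Molm-14 (exact p = 0.0286) at 24 h. With a pseudocount of 1 CPM the difference in Molm-14 at 24 h was 2.03. KSR1 relative to NF1 was higher by 2.01 in OCIAML-3 (exact p = 0.0571) and 1.25 in Molm-14 (exact p = 0.0286) at 24 h.

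**Figure D3:**
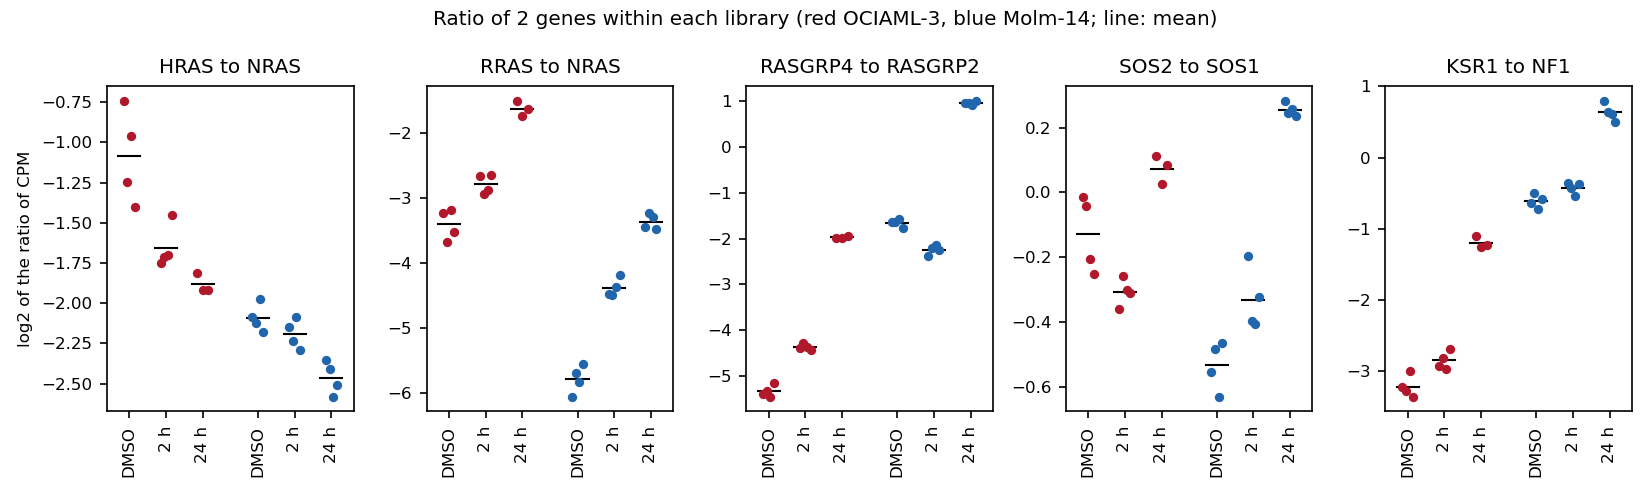
Log2 ratio of the CPM of 2 genes in each library, with DMSO, 2 h and 24 h along the horizontal axis, OCIAML-3 in red on the left of each panel and Molm-14 in blue on the right. Points are libraries and lines are group means. In the RASGRP4 to RASGRP2 panel Molm-14 passes above 0 at 24 h only, and in the SOS2 to SOS1 panel the 2 h libraries lie below DMSO in OCIAML-3 and above it in Molm-14.

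PPIA, which encodes the drug's binding partner, was at 1643, 1611 and 765 CPM in OCIAML-3 at DMSO, 2 h and 24 h, and at 1604, 1547 and 1136 CPM in Molm-14 (group means). It fell at 24 h in OCIAML-3 by 1.10 ± 0.04 (adjusted p = 5.4e-20), a call that was lost when libraries were scaled to their totals (-0.93). In Molm-14 at 24 h the difference was -0.50, short of the fold limit. ICMT, the methyltransferase that finishes the tail of RAS proteins, fell at 24 h in both lines, to 31.2 CPM in OCIAML-3 with drug against 134 CPM with DMSO, and to 58.4 CPM in Molm-14 with drug against 129 CPM with DMSO. Of the 16 measured genes of RAS lipid processing and transport 2 were called lower in OCIAML-3 at 24 h and 1 in Molm-14, against 17.1% and 6.57% of all genes, and 0 were called higher in either line (18.4% and 11.4% of all genes).

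Further genes of the pathway were read from 9 lists of 154 genes, 129 of them measured, set up with earlier results of these data known. Of these 129, 20 were called higher and 15 lower in OCIAML-3 at 24 h, against 18.4% and 17.1% of all genes. In Molm-14 at 24 h 13 of the 129 were called higher and 3 lower, against 11.4% and 6.57% of all genes. At 2 h 2 of the 129 were called higher and 5 lower in OCIAML-3 (3.23% and 3.35% of all genes), and 8 higher and 5 lower in Molm-14 (4.30% and 2.98% of all genes). The median log2 fold change of the 129 at 24 h was 0.06 in OCIAML-3 and 0.17 in Molm-14, beside 0.01 and 0.00 for all genes, so the lists as a whole stood near all genes. A further list held 12 ERK target genes, of which SPRY4 and SPRED1 are also among the 129. All 12 of the ERK targets fell in OCIAML-3 at 24 h (median log2 fold change -4.17) and 7 of 12 fell in Molm-14 (median -1.78). CCND1, which encodes cyclin D1, was at 0.428 CPM at 24 h in OCIAML-3 against 64.4 CPM with DMSO, and at 9.51 CPM in Molm-14 against 33.1 CPM.

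Of 17 other exchange factors listed 9 were measured, of which 3 were called higher in OCIAML-3 at 24 h and 1 in Molm-14, against 18.4% and 11.4% of all genes. None of the 9 was called lower in either line (17.1% and 6.57% of all genes). RGL2, an exchange factor for RAL that RAS recruits, rose in OCIAML-3 by 1.85 ± 0.06 to 170 CPM, against 47.3 CPM with DMSO (adjusted p = 2.1e-22). In Molm-14 it averaged 97.2 CPM at 24 h against 50.8 CPM with DMSO, and was not called. RGL3, a relative of RGL2, rose in OCIAML-3 by 1.97 ± 0.18 (adjusted p = 1.6e-11) and is listed at 0 in all Molm-14 libraries. Of 15 measured other RAS family GTPases 1 was called lower in OCIAML-3 at 24 h (17.1% of all genes) and 1 higher in Molm-14 (11.4%). DIRAS1, a RAS-like GTPase, rose in Molm-14 at 2 h by 1.63 ± 0.07 (adjusted p = 4.5e-19) and was still 1.21 ± 0.07 higher at 24 h, and RASL11A fell in OCIAML-3 at 24 h by 1.28 ± 0.13 (adjusted p = 2.4e-10).

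GTPase-activating proteins, which like NF1 speed the return to the GDP-bound state, held 19 measured genes. At 24 h 4 were called higher and 0 lower in OCIAML-3, against 18.4% and 17.1% of all genes, and 4 were called higher and 1 lower in Molm-14, against 11.4% and 6.57%. The gene called lower was DAB2IP, which encodes a RAS GTPase-activating protein, at a log2 fold change of -1.25; it was named after its value was seen. RAP1GAP2, which acts on the RASGRP2 substrate RAP1, rose to 24.4 CPM at 24 h in OCIAML-3, against 4.55 CPM with DMSO (2.40 ± 0.10, adjusted p = 1.4e-19). It rose to 56.4 CPM at 24 h in Molm-14, against 14.9 CPM with DMSO (1.92 ± 0.09, adjusted p = 1.2e-17), and there it was already at 52.9 CPM at 2 h. RASA4 and RASA4B, near-identical copies between which reads can be split arbitrarily, both rose at 24 h, by 2.06 and 1.87 in OCIAML-3 and by 2.89 and 2.38 in Molm-14. RALGAPA2, a subunit of the RAL inhibitor complex, rose by 1.33 ± 0.05 in OCIAML-3 (adjusted p = 2.4e-20) and 1.10 ± 0.05 in Molm-14 (adjusted p = 9.5e-19).

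Of the partners and negative regulators of NF1 and RAS 15 were measured. At 2 h 4 of them, the feedback inhibitors SPRY2, SPRY4, SPRED1 and SPRED2, were called lower in both lines, against 3.35% of all genes in OCIAML-3 and 2.98% in Molm-14, and 0 of the 15 were called higher. The median log2 fold change of the 15 at 2 h was -0.43 in OCIAML-3 and -0.03 in Molm-14. SPRED1 and SPRED2 bring NF1 to the membrane; SPRED2 was at 9.13 CPM at 2 h in OCIAML-3 against 28.4 CPM with DMSO, and at 12.4 CPM in Molm-14 against 29.6 CPM. At 24 h SPRED2 averaged 7.81 CPM in OCIAML-3 and 29.5 CPM in Molm-14. At 24 h the list had 4 called higher and 4 lower in OCIAML-3 (18.4% and 17.1% of all genes) and 3 higher and 1 lower in Molm-14 (11.4% and 6.57%). RASSF4, a RAS-binding protein gene, rose in both lines and stood at 214 CPM in OCIAML-3 against 85 CPM with DMSO and at 213 CPM in Molm-14 against 79.2 CPM.

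Among the adaptors upstream of SOS, 24 measured, 5 were called higher and 1 lower in OCIAML-3 at 24 h, against 18.4% and 17.1% of all genes, and 3 higher and 0 lower in Molm-14, against 11.4% and 6.57%. CBLB, a ubiquitin ligase of receptors, rose in both, by 2.06 ± 0.09 in OCIAML-3 (adjusted p = 4.7e-19) and by 2.68 ± 0.08 in Molm-14 (adjusted p = 2.9e-22). GAB2, a docking protein, reached 65.9 CPM at 24 h in OCIAML-3 against 8.38 CPM with DMSO (2.96 ± 0.07, adjusted p = 1.8e-25). PTPN11, the phosphatase SHP2 that acts with GAB proteins ahead of SOS, fell in OCIAML-3 by 1.31 ± 0.06 (adjusted p = 4.5e-19). In Molm-14 at 24 h GAB2 averaged 100 CPM against 53.6 CPM with DMSO, and PTPN11 185 CPM against 299 CPM. Neither was called there. Of the 10 RAF to ERK kinase genes, the kinase gene RPS6KA2, downstream of ERK, was the only one called at 24 h, higher by 1.36 ± 0.19 in OCIAML-3 (adjusted p = 1.8e-07) and by 2.55 ± 0.18 in Molm-14 (adjusted p = 7.1e-14). Its level was low: 9.61 CPM at 24 h against 3.7 CPM with DMSO in OCIAML-3, and 6.19 CPM against 0.99 CPM in Molm-14. Among 20 measured scaffolds and modulators beside KSR1, 3 were called higher and 6 lower in OCIAML-3 at 24 h and 0 in either direction in Molm-14, beside the same shares of all genes. PEBP1, which encodes an inhibitor of RAF, fell in OCIAML-3 by 1.29 ± 0.04 (adjusted p = 2.5e-23), and the 14-3-3 gene YWHAH fell by 1.98 ± 0.04 (adjusted p = 1.7e-27).

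**Figure D4:**
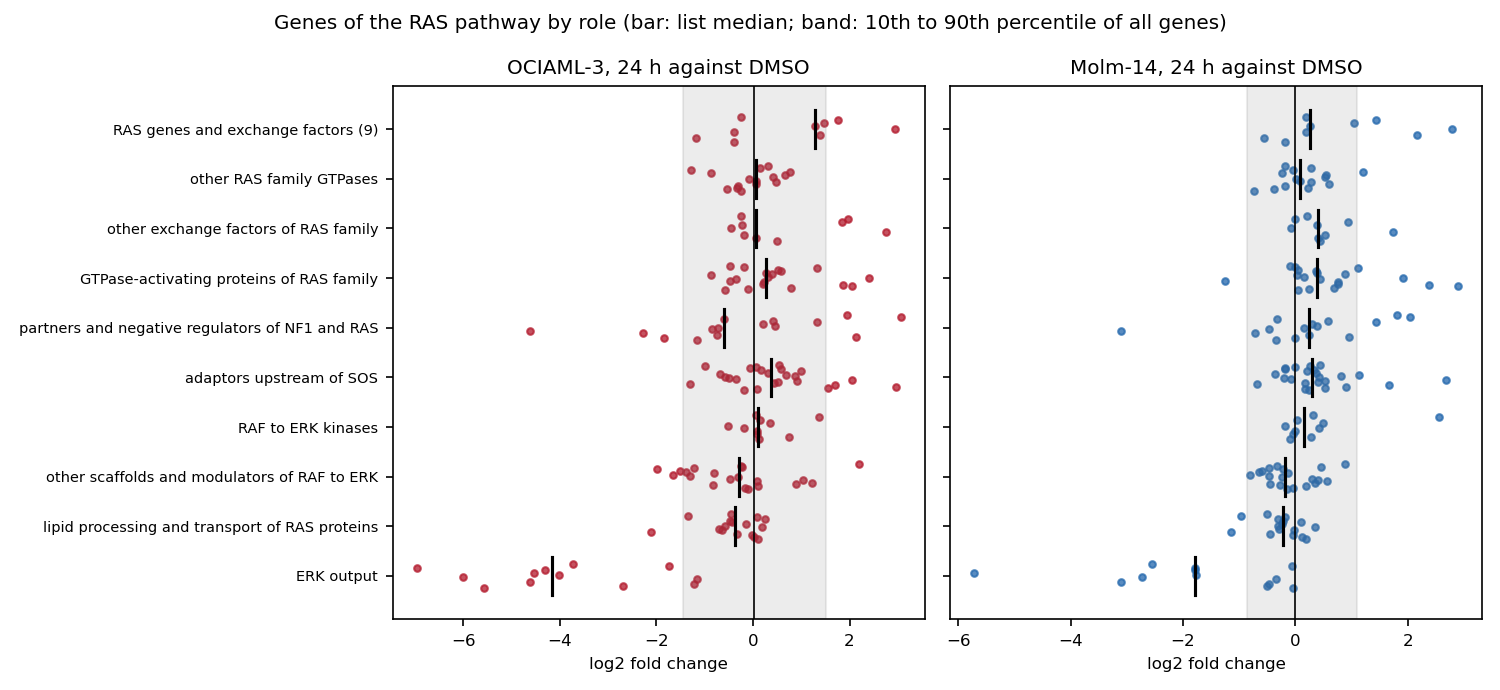
Log2 fold change at 24 h of RMC-7977 against DMSO for the 9 genes (top row) and 9 further lists by role, in OCIAML-3 (left) and Molm-14 (right). Points are genes, short bars are list medians, the line is the median of all genes and the grey band spans the 10th to the 90th percentile of all genes (-1.45 to 1.51 in OCIAML-3, -0.85 to 1.09 in Molm-14). The ERK target list lies farthest to the left, and the 9 genes have a median of 1.28 in OCIAML-3 and 0.26 in Molm-14. The 9 genes and the lists were chosen with earlier results of these data known.

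The genes most like the called members over the 23 libraries were named by Pearson's r of log2 CPM among 10610 genes with a mean of at least 5 CPM; the points share line and treatment, so r is a description. RASGRP4 was most like ABCA7 (r = 0.987), which stood at 49.9, 97.3 and 419 CPM in OCIAML-3 and 36.5, 80.3 and 239 CPM in Molm-14 at DMSO, 2 h and 24 h. SOS2 was most like BLTP1 (r = 0.988) and ADD3 (r = 0.983), and SOS1 was most like DMTF1 (r = 0.976). KSR1 was most like GIT2 (r = 0.994), RASGRP2 like SELENOW (r = 0.991), RRAS like LILRB4 (r = 0.983) and HRAS like PLXNA1 (r = 0.968). The 3 nearest to HRAS also held LRWD1 (r = 0.968) and CCNE1, the cyclin E1 gene (r = 0.963). LRWD1 was at 70.9, 41.7 and 18.3 CPM in OCIAML-3 and 49.5, 39.3 and 21.6 CPM in Molm-14. CCNE1 was at 33.4, 18.1 and 4.18 CPM in OCIAML-3 and 16.5, 17.4 and 6.71 CPM in Molm-14.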

How the data were processed

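Per the submitters' processing notes, the tools included STAR 2.7.8a, RSEM 1.3.3, edgeR 3.24.3 as well as limma 3.38.3, and the genome GRCh38. Their order and settings, the strand and the gene filter are not stated there. The deposited values are log2 CPM for 13033 gene symbols. All libraries share a lowest value of -3.26, which equals 0.105 CPM; this was subtracted for the CPM printed, and fold changes keep it, which understates those of low genes. Depth was recovered from the spacing of low values: only 74.9% to 82.8% of those worth at most 20 reads came within 0.05 of whole numbers, so no test on counts was the main one.

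A single limma 3.58.1 model (R 4.3.3; 6 group means, trend and robust moderation) gave all contrasts, adjusted by Benjamini-Hochberg over 13033 genes. The code was tested on simulated data. Genes were matched by symbol to the GENCODE annotation of GRCh38. Beside the 9 genes, PPIA and DUSP6, names were drawn from up to 4 called genes per list and comparison with drug. These had at least 5 CPM in the higher group and the smallest adjusted p. Names were also drawn from the 3 genes most like each called member. Not every gene that qualified is named. The members and lists were chosen with earlier results of these data known. Alternatives were other scalings, pseudocount, filters, moderation, fewer groups in the fit, voom on recovered reads, a replicate block and each library left out.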

Additional observations from a re-analysis of the deposited data

Results flagged for a closer look

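The responses of RASGRP2 differed between the lines at both times by limma's contrast of the 2 responses. At 2 h the difference was -1.35 (adjusted p = 6e-15), with 0.02 in OCIAML-3 and 1.37 in Molm-14. At 24 h it was -0.58 (adjusted p = 2.1e-07), and the lines moved in opposite directions, with the 3 libraries of OCIAML-3 below all DMSO libraries (-0.39) and the 4 of Molm-14 above all of theirs (0.19).

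The response of SOS1 at 24 h differed by 1.02 (adjusted p = 9.6e-12), with 1.28 in OCIAML-3 and 0.26 in Molm-14.

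Within libraries, the ratio of RASGRP4 to RASGRP2 at 2 h moved up in every OCIAML-3 library and down in every Molm-14 library relative to all DMSO libraries of the line, a difference of 1.55 on the log2 scale. The ratio of SOS2 to SOS1 at 2 h moved the other way round, down in OCIAML-3 and up in Molm-14, a difference of -0.38. These 2 differences between the lines were not tested.

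No library stood apart from its group by the gap test in 45 combinations of gene and group of 4 libraries, a test that picks out about 1 in 20 by chance.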

How the results depend on the processing

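Over all alternatives, 1476 of 1494 values of the 9 genes kept their direction and their side of the threshold, 4 lost a call, 5 gained one and 9 changed sign. Between libraries of different groups, deviations from the group means correlated at -0.353 to 0.257 for the same replicate number (median 0.00883, 13 of 55 above 0.1). For other numbers they correlated at -0.286 to 0.295 (median -0.00533, 23 of 165 above 0.1). These values do not settle whether the replicate numbers pair the libraries. With the replicate block, 6 members were called in OCIAML-3 at 24 h, 4 in Molm-14 at 24 h and 0 in OCIAML-3 at 2 h, and no member count changed; over all genes in OCIAML-3 at 24 h it gave 4614 calls against 4620.

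Without the fold limit, members past the adjusted p numbered 7 in Molm-14 at 2 h, 9 at 24 h and 8 between the times, 6 in OCIAML-3 at 2 h and 9 between the times, 4 and 8 for the response differences at 2 h and 24 h, and 9 for the lines in DMSO. For all genes the same counts were 7756, 9950, 8901, 8106, 11002 (OCIAML-3 at 24 h), 10117, 5039, 8527 and 10740. In OCIAML-3 at 2 h 1 member was called under library totals or median-of-ratios factors (RASGRP4, 1.05 and 1.00), and 562 or 569 genes in all with a pseudocount of 1 CPM or with only genes of at least 5 CPM, against 858. For the 2 h response difference these 2 settings gave 470 and 466 genes against 735. For the 24 h response difference 0 members were called with the pseudocount, and 0 to 1 when a library was left out. Library totals shifted the median of all genes by 0.168 in OCIAML-3 at 24 h and by 0.102 between its times.

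Signs changed only for values near 0. In OCIAML-3 at 2 h, NF1 was 0.06 under library totals, 0.01 under median-of-ratios factors and -0.07 to 0.04 when a library was left out, PPIA was 0.04 under library totals and -0.05 to 0.00 with a library left out, NRAS ran from -0.02 to 0.07 and RASGRP2 from -0.03 to 0.05 in such fits. KSR1's 2 h response difference ran from -0.01 to 0.07, and DUSP6 in Molm-14 at 24 h was 0.05 and 0.02 under the 2 scalings. Values of DUSP6 and SPRY4 at a few reads shrank by more than 1.5 times with the pseudocount. The causes were not tested. Depth limits RRAS in Molm-14 most.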
